A study of Mus musculus with 29 samples.

Results

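Transcripts of 8 genes of the IL-33 and IL-4/IL-13 axis were followed in cultured stromal vascular fraction (SVF) cells of mouse white fat: the ligands Il33 and Tslp, the receptor genes Il1rl1, Il4ra, Il13ra1 and Il13ra2, the transcription factor gene Stat6 and the target gene Arg1. The genes were chosen by symbol, with results of earlier fits to the same libraries already known, and each symbol matched 1 row of the count table, which held 56953 features in all. For this reason the differences between depots are given for these genes as a description, without p-values. The tests between labelled sexes are given with their false discovery rate (FDR). So is the interaction test, which asks whether a depot difference differed between the labelled sexes. Both come from the same libraries and are no independent support for the choice. The lists of other genes used below were also chosen with earlier results of these data known. Their FDRs and counts of called genes are therefore no independent support either.

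IL-33 is an alarmin released by stromal and other barrier cells, and it signals through ST2, the product of Il1rl1, together with the shared co-receptor encoded by Il1rap. In fat, IL-33 from stromal cells is known to sustain group 2 innate lymphoid cells (ILC2) and regulatory T cells, and the IL-4, IL-5 and IL-13 of such cells maintain eosinophils and macrophages. IL-4 and IL-13 share the receptor chain IL-4R alpha, encoded by Il4ra, which pairs with the common gamma chain or with the product of Il13ra1, activates STAT6 and induces genes such as Arg1. The product of Il13ra2 binds IL-13 and is regarded mainly as a decoy, and TSLP is an epithelial and stromal cytokine that signals through a receptor of its own.

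Crude SVF, the non-adipocyte cells released from fat by enzyme digestion, came from C57BL6/J mice labelled male or female and described as adult, and was grown for 4 days in PM1 medium with 1 nM basic FGF in wells of a 96-well plate. Every group shared this strain, medium and growth factor, and no group was left without the factor. Bulk Smart-seq3 libraries numbered 29, of which 19 came from iWAT, the inguinal subcutaneous depot (10 labelled male, 9 labelled female), and 10 from pgWAT, the perigonadal visceral depot (4 labelled male, 6 labelled female). The wells were technical replicates of a few independent experiments, and the labels do not tie wells to experiments or animals, so the tests describe the spread between wells. The numbers of libraries per depot and sex given here follow the labels, and they differ from those in the methods of the study. Libraries were numbered within a group in order of deposition. Well column, used below, is taken from the position in each sample title. Those positions run to row P, beyond the rows of a 96-well plate. The study moved RNA to another plate for library preparation, and the titles do not say which plate is meant.

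Total counts per library ranged from 315316 to 1102234, so that 3 counts, the limit that a count of 0 allows, corresponded to between 2.72 and 9.51 CPM (the gene's share of its library, so that levels in libraries of unequal depth can be compared) for single libraries, for counting error only. Library totals were adjusted by TMM factors for this. Fibroblast transcripts were abundant throughout, and the 6 listed (Pdgfra, Col1a1, Col3a1, Dcn, Lum and Fn1) together took between 6530 and 23251 CPM. All 19 iWAT libraries carried sex-linked transcripts that matched their label. In pgWAT only 5 of 10 libraries did: pgWAT male 1 and 3 and pgWAT female 4, 5 and 6. The libraries labelled pgWAT male 2 and 4 had 24 and 60 counts of Xist and 1 and 0 of 4 Y-linked genes, those labelled pgWAT female 2 and 3 had 0 of Xist and 23 and 26 of the Y-linked genes, and that labelled pgWAT female 1 had 7 and 10. Groups were kept as labelled, and results that rest on those libraries are given with and without them.

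Reference sequence was available for 6 of the 8 genes in the RefSeq promoter table (GRCm38.p6), with 2 start sites each for Il33 and Il1rl1. The 250 bases before the start are shown for both starts of Il1rl1 and for Il4ra, the receptor genes that differed most between the depots, and for the start of Il33 that held a STAT6-type motif. The sequences run 5′ to 3′ on the plus strand, which is the strand of these genes, and capitals mark motif matches.
Il1rl1, first start, chr1:40429320-40429569: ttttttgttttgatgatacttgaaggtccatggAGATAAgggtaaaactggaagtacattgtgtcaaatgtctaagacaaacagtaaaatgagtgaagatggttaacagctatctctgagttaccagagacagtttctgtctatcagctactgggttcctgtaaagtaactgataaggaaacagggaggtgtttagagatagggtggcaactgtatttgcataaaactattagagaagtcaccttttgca
Il1rl1, second start, chr1:40439379-40439628: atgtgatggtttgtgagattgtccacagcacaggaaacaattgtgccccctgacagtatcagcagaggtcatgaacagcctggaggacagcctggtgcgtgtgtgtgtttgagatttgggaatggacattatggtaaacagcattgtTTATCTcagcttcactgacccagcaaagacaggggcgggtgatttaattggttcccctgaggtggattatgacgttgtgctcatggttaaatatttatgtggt
Il4ra, chr7:125552021-125552270: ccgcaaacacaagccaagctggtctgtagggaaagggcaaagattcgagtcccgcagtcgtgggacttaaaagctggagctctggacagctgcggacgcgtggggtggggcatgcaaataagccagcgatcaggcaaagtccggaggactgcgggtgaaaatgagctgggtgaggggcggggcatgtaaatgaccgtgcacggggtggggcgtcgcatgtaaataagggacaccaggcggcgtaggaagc
Il33, first start, chr19:29924863-29925112: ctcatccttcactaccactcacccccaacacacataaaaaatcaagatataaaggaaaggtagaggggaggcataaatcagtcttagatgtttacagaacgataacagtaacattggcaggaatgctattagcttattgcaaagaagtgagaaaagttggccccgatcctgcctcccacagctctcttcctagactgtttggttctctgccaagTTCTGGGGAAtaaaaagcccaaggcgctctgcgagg

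4 motifs were searched on both strands: TTCNNNNGAA, the spacing that STAT6 is known to favour, TTCNNNGAA of other STAT proteins, TGANTCA of AP-1 and AGATAA of GATA factors. Il33 held the STAT6-type motif 36 to 27 bases before its first start, and this motif was present in 5.85% of all 32851 promoter windows of the same length. Each Il1rl1 start had 1 AGATAA match, at 217 to 212 and at 103 to 98 bases before the start and the second on the minus strand, against 9.99% of all windows. The Il4ra window held none of the 4, nor did those of Stat6 and Il13ra1 or the second start of Il33, which are not shown, and the Il13ra2 window, also not shown, had 1 AP-1 and 1 AGATAA match. TTCNNNGAA and TGANTCA were in 7.02% and 6.75% of all windows. A match is a stretch of letters and not a bound site. The windows also differed in composition, with 59.6% G and C and 17 CG dinucleotides at Il4ra against 37.6% and 0 at the first and 46.4% and 3 at the second Il1rl1 start. The counts were summed per gene and do not separate the starts.

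Per length of the longest annotated coding transcript, the order of the genes differed between the depots. In iWAT, Il1rl1 was highest at 156 ± 50.7 CPM per kb (SD, n = 19), followed by Il4ra at 53.2 ± 19.6, Stat6 at 39.0 ± 5.86 and Il33 at 28.6 ± 11.6. In pgWAT, Il4ra led at 143 ± 69.6 CPM per kb (SD, n = 10), Stat6 had 40.2 ± 7.53, Arg1 20.4 ± 7.99, Il1rl1 17.4 ± 11.1 and Il33 11.0 ± 10.2. Below these lay Tslp at 5.98, Arg1 at 4.60, Il13ra1 at 4.15 and Il13ra2 at 1.99 in iWAT, and Il13ra1 at 6.01, Tslp at 3.12 and Il13ra2 at 1.53 in pgWAT. Neighbours in each order overlapped in range within each depot. In groups taken alone, Il1rl1 stood clear of the next gene in both iWAT groups and Il4ra in both pgWAT groups. Il4ra also did so in iWAT female, and Stat6 in iWAT female and in pgWAT female. The Il1rl1 value depends on the transcript assumed, because its coding transcripts span 375 to 5302 bases and the gene count sums the membrane and the shorter soluble form of ST2.

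**Figure D1:**
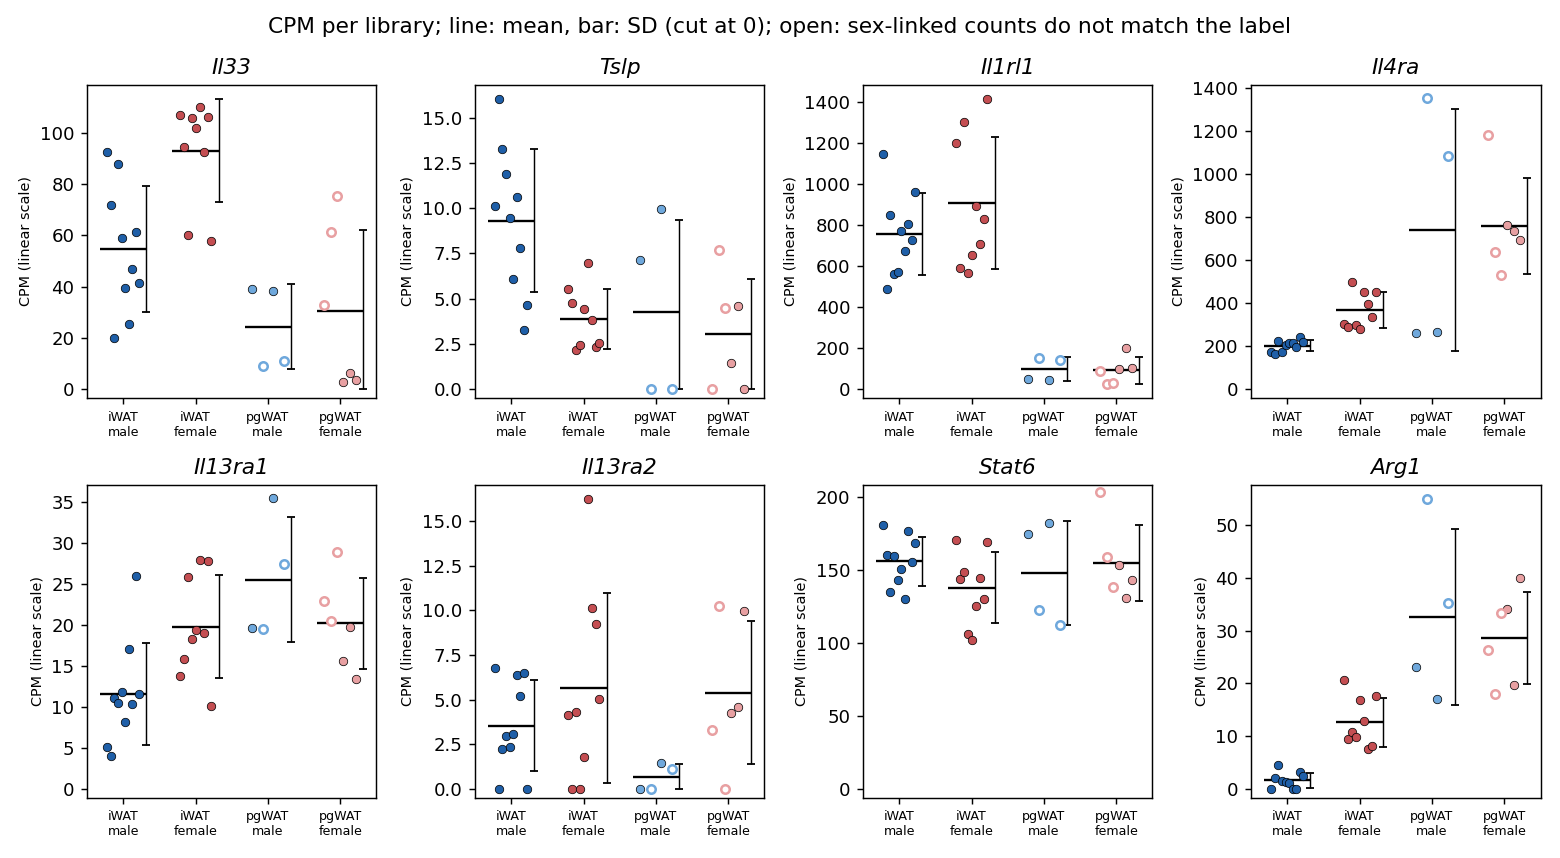
CPM of the 8 genes in each of the 29 libraries (vertical axes, linear, a separate scale per gene) by group. Lines are group means, bars the SD cut at 0, and open points the 5 pgWAT libraries whose sex-linked counts did not match the label. The 19 iWAT libraries lie above all 10 pgWAT libraries for Il1rl1, and the 10 iWAT male libraries lie below all 9 iWAT female libraries for Il4ra and Arg1.

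The question of the depot comparison was which of these genes differed between cultures of subcutaneous and visceral origin. Across both labelled sexes, 5 of the 6 genes that passed the filter on low counts were past an FDR of 0.05 in edgeR's quasi-likelihood test, beside 38.1% of all 8853 genes tested. 3 were higher in pgWAT (Arg1, Il4ra and Il13ra1), where 20.1% of all genes were called, and 2 were lower (Il1rl1 and Il33), where 17.9% were. The median log2 fold change was 0.33 over the 6 genes and 0.01 over all genes. Since the genes were chosen with these differences known, nothing is read from the counts. Within labelled males 4 of 6 were past the threshold beside 20.3% of all genes, and within labelled females 4 of 6 beside 26.8%. Fewer cells of a type and less RNA per cell cannot be told apart in bulk cultures.

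Of the ligands, Il33 (ENSMUSG00000024810.17, chromosome 19) had the wider range. In iWAT male it ranged from 19.9 to 92.7 CPM with a median of 52.9, and in iWAT female from 57.9 to 110.3 with a median of 102. In pgWAT male libraries 1 to 4 it had 39.1, 8.86, 38.4 and 11.0 CPM, and in pgWAT female libraries it ranged from 2.83 to 75.6 with a median of 19.4. 5 of the 10 pgWAT libraries lay below all iWAT libraries and 9 of the 19 iWAT libraries above all pgWAT libraries. The fitted difference, pgWAT minus iWAT, was -1.46 on the log2 scale (SE 0.324), a 2.75-fold lower level, and it was -1.20 (SE 0.484) within labelled males, which did not pass the threshold, and -1.71 (SE 0.426) within labelled females. Without the 5 pgWAT libraries that did not match their labels it was -2.49 (SE 0.321), and then -0.54 (SE 0.369) within males and -4.43 (SE 0.491) within females.

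Tslp (ENSMUSG00000024379.5) was near the limit of detection and did not pass the filter. It had 53 counts over the 10 iWAT male libraries and 27 over the 9 iWAT female libraries, or 9.31 ± 3.96 CPM (SD, n = 10) and 3.87 ± 1.68 CPM (SD, n = 9), and every iWAT library had at least 1 count. The pgWAT libraries had 20 counts in all and 0 in 4 of 10. With the filter taken away, edgeR gave iWAT male minus female a log2 fold change of 1.18 (SE 0.476, FDR 0.259). For pgWAT minus iWAT it gave -0.75 (SE 0.461), and neither was called at this depth. In iWAT, 7 of the 10 male libraries lay above all female libraries, and all 9 female libraries lay below the male mean, with overlapping ranges.

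Il1rl1 (ENSMUSG00000026069.16, chromosome 1), the gene of the IL-33 receptor ST2, separated the depots without overlap. It ranged from 486 to 1150 CPM with a median of 749 in iWAT male (n = 10) and from 564 to 1415 with a median of 828.8 in iWAT female (n = 9). In pgWAT male libraries 1 to 4 it had 49.8, 151, 41.2 and 143 CPM, and in pgWAT female it ranged from 23.1 to 202 with a median of 92.2. The lowest iWAT library was thus above the highest pgWAT library, and the fitted difference was -3.12 (SE 0.267), or 8.71-fold lower in pgWAT. It was -2.96 (SE 0.396) within labelled males and -3.28 (SE 0.346) within labelled females, and between -3.40 and -3.00 in every alternative run on the depot difference. Il1rap, the co-receptor, was higher in pgWAT by 0.45 (SE 0.159, FDR 0.0239), at 58.6 ± 21.8 against 43.8 ± 12.1 CPM. Within labelled males the Il1rap difference was 0.72 (SE 0.229, FDR 0.0225), and within labelled females it was 0.18 (SE 0.221, FDR 0.591) and not called, and the difference between these was not called in the interaction test (0.54, SE 0.320, FDR 0.661).

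Il4ra (ENSMUSG00000030748.10, chromosome 7), the chain shared by the IL-4 and IL-13 receptors, was higher in pgWAT in each labelled sex. It ranged from 164 to 239.7 CPM with a median of 209 in iWAT male and from 280.0 to 497 with a median of 335 in iWAT female. In pgWAT male libraries 1 to 4 it had 259.6, 1355, 264 and 1082 CPM, and in pgWAT female it ranged from 529 to 1183 with a median of 715. The depots did not overlap within males or within females, but the 2 lowest pgWAT libraries, both labelled male, lay below all iWAT female libraries. The fitted difference was 1.46 (SE 0.177), or 2.76-fold, with 1.88 (SE 0.259) within males and 1.05 (SE 0.240) within females. Without the 5 libraries that did not match it was 0.68 (SE 0.120) in all, 1.00 (SE 0.152) within females and 0.36 (SE 0.188) within males, the last no longer past the threshold.

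The IL-13 receptor chains, whose genes both lie on the X chromosome, were expressed at low levels. Il13ra1 (ENSMUSG00000017057.10), the partner of IL-4R alpha in the type II receptor, ranged from 4.00 to 25.9 CPM with a median of 10.7 in iWAT male and from 10.1 to 27.9 with a median of 19.02 in iWAT female. It had 19.6, 19.5, 35.5 and 27.5 CPM in pgWAT male libraries 1 to 4 and ranged from 13.3 to 28.9 with a median of 20.1 in pgWAT female. All comparisons overlapped. The fitted depot difference of 0.62 (SE 0.204) rested on labelled males, at 1.23 (SE 0.299) against 0.00 (SE 0.283) within females, and the difference between these was not called in the interaction test (1.23, SE 0.407, FDR 0.332). It lost its call in 4 of 36 alternatives: with well column as a factor (0.45, SE 0.230), with no filter (0.59, SE 0.230), without pgWAT male 3 (0.51, SE 0.216) and without the 5 libraries that did not match (0.53, SE 0.266).

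Il13ra2 (ENSMUSG00000031289.11), the decoy chain, did not pass the filter. It had 58 counts over the 19 iWAT libraries and 16 over the 10 pgWAT libraries, of which 2 were in pgWAT male and 14 in pgWAT female, and 4 iWAT and 3 pgWAT libraries had 0. No fold change is given for pgWAT male, whose 2 counts lie under the floor of 3.

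Stat6 (ENSMUSG00000002147.19, chromosome 10), the transcription factor activated through these receptors, was called in none of the 6 comparisons. Its mean was 156 ± 16.8 CPM (SD) over the 10 iWAT male and 138 ± 24.3 CPM over the 9 iWAT female libraries. Over the 4 pgWAT male libraries it was 148 ± 35.5 CPM and over the 6 pgWAT female libraries 154 ± 25.9 CPM. The single pgWAT male libraries had 174, 122, 182 and 112 CPM. The depot difference was 0.04 (SE 0.101) and lay between -0.02 and 0.11 in the alternatives. Transcript level gives no measure of STAT6 activation. Nab2 overlaps Stat6 on the other strand and had 143 ± 45.9 CPM in iWAT and 129 ± 27.8 in pgWAT.

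Arg1 (ENSMUSG00000019987.10, chromosome 10), the arginase that serves as a standard target of STAT6 in macrophages, was near the limit of detection in iWAT male and was measured in every library of the other groups. The iWAT male libraries had 0, 1 or 2 counts each and 8 in all, with a highest value of 4.43 CPM. The iWAT female libraries ranged from 7.61 to 20.6 CPM with a median of 10.8. In pgWAT male libraries 1 to 4 Arg1 had 23.1, 54.9, 17.1 and 35.2 CPM, and in pgWAT female it ranged from 17.9 to 40.0 with a median of 29.8. 7 of the 10 pgWAT libraries lay above every iWAT library, and 17 of the 19 iWAT libraries below every pgWAT library. The fitted difference was 2.74 (SE 0.261), or 6.69-fold higher in pgWAT, with 4.32 (SE 0.418) within males, where the iWAT level was near 0 and the fitted fold depends on that, and 1.16 (SE 0.301) within females. The interaction test, (pgWAT minus iWAT in males) minus the same in females, gave 3.16 (SE 0.539, edgeR FDR 0.00589), and 0.181% of all genes were called there. Arg1 was the only one of the 6 genes called in this test.

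**Figure D2:**
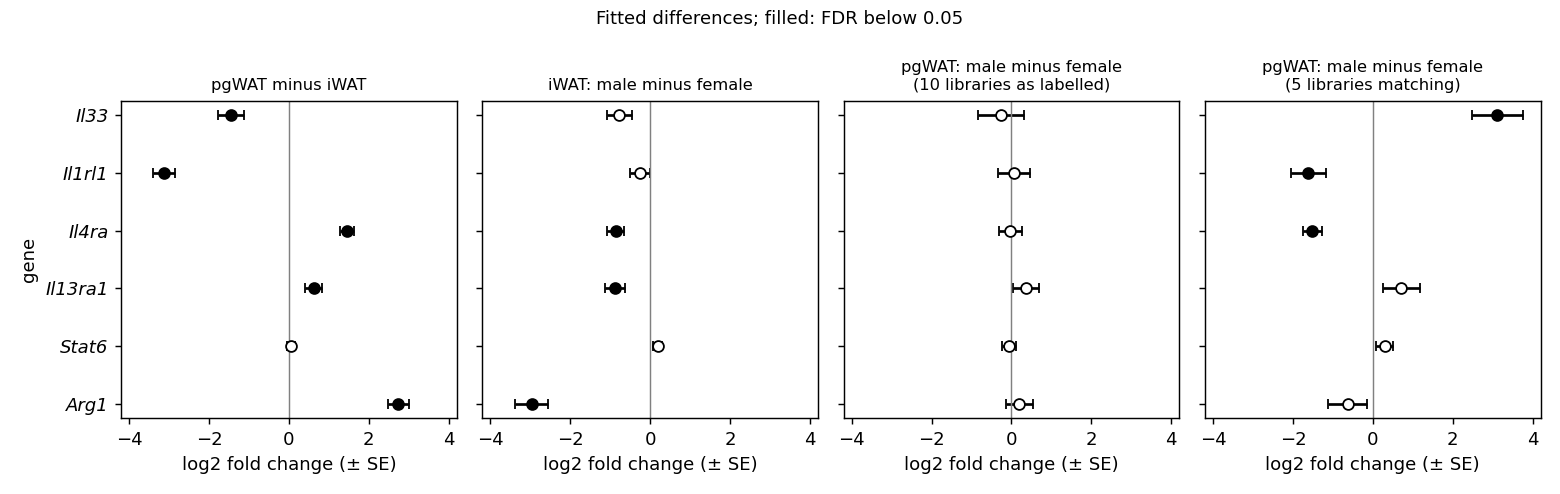
Fitted log2 fold changes (horizontal axis, ± SE) of the 6 genes that passed the filter, between depots, between labelled sexes in iWAT, in the 10 pgWAT libraries as labelled and in the 5 pgWAT libraries whose sex-linked counts matched the label; filled points had an FDR below 0.05. Il1rl1 lies at -3.12 and Arg1 at 2.74 between depots, and Il33 lies at -0.26 between labelled sexes in pgWAT and at 3.11 over the matching libraries.

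In iWAT, where every library matched its label, the comparison of the sexes asked whether differences between male and female cells were still seen after culture. The wells were technical replicates that the labels do not tie to animals or experiments. Sex cannot be told apart from animal and experiment here either. 3 of the 6 tested genes were called lower in male (Arg1, Il4ra and Il13ra1) and none was called higher, beside 3.22% of all genes called in either direction and 2.13% lower in male. The median log2 fold change was -0.82 over the 6 genes and 0.01 over all genes. Arg1 was lower in male by 2.96 on the log2 scale (-2.96, SE 0.410, edgeR FDR 1.58e-05), 7.80-fold, and all 10 male libraries lay below all 9 female libraries. Il4ra was 1.82-fold lower (-0.86, SE 0.218, FDR 0.0198) and again the sexes did not overlap. Il13ra1 was 1.83-fold lower (-0.87, SE 0.251, FDR 0.0480) with overlapping ranges. It lost its call in 20 of 37 alternatives, among them well column 7 alone, where iWAT libraries of both sexes lay (-0.69, SE 0.365, FDR 0.356). In that column Arg1 (-3.25, SE 0.589, FDR 0.00314) and Il4ra (-0.61, SE 0.139, FDR 0.0194) kept theirs. With the 2 iWAT groups fitted alone, Arg1 and Il13ra1 did not pass the filter on low counts and were not tested. Their tests thus come only from fits that also held pgWAT libraries. Arg1 had 8 counts in all in iWAT male, so its fitted fold depends on a level near 0.

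Il33 had a lower level in iWAT male than in iWAT female that did not pass the threshold (-0.77, SE 0.318, FDR 0.207). All 10 male libraries lay below the female mean and all 9 female libraries above the male mean, with overlapping ranges. The call differed between fits: the value was past the threshold with the 2 iWAT groups fitted alone (-0.78, SE 0.204, FDR 0.0195), without the filter (-0.78, FDR 0.0222) and without the 5 pgWAT libraries that did not match (-0.78, SE 0.194, FDR 0.0119). These fits differ in the libraries or genes they hold, and the cause of the change was not tested. Il1rl1 (-0.26, SE 0.250, FDR 0.678) and Stat6 (0.19, SE 0.117, FDR 0.461) were not called, and their ranges overlapped.

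In pgWAT as labelled, none of the 6 genes was called between the sexes, beside 0.0113% of all genes, or 1 gene. At an unadjusted p below 0.05 none of the 6 passed either, and DESeq2 and limma-voom also called none of them. The labels of 5 libraries stood against or apart from their sex-linked transcripts, so this contrast does not set male against female cells. Over the 5 libraries that matched, 2 male and 3 female, 3 of the 6 genes were called beside 5.63% of all genes. Il33 was higher in male by 3.11 (SE 0.638, edgeR FDR 0.00155), with 39.1 and 38.4 CPM against 2.83, 6.08 and 3.33. Il4ra was lower in male by 1.51 (-1.51, SE 0.231, edgeR FDR 2.80e-05), with 259.6 and 264 CPM against 765, 737 and 693. Il1rl1 was lower in male as well (-1.61, SE 0.439, edgeR FDR 0.0216), with 49.8 and 41.2 CPM against 99.2, 202 and 99.96. Arg1 was not called (-0.63, SE 0.493, FDR 0.601). With 2 male libraries, and with wells that may come from 1 experiment, sex, experiment and well cannot be told apart here.

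Of the pgWAT libraries that did not match, those labelled male 2 and 4 and female 2 and 3 had sex-linked transcripts of 1 sex. For Il33 and Il1rl1 they fell on the same sides as these transcripts rather than their labels. The libraries labelled pgWAT male 2 and 4, with Xist counts, had 8.86 and 11.0 CPM of Il33 and 151 and 143 CPM of Il1rl1. The libraries labelled pgWAT female 2 and 3, with Y-linked and no Xist counts, had 61.5 and 75.6 CPM of Il33 and 23.1 and 31.1 CPM of Il1rl1. The library labelled pgWAT female 1, with counts of both kinds, had 32.8 and 85.2 CPM. For Il4ra the labelled female 2 and 3 libraries, at 638 and 529 CPM, lay near the matching female libraries, and the labelled male 2 and 4 and female 1 libraries were the highest at 1355, 1082 and 1183 CPM. These values are a description and were not tested as groups. Macrophage transcripts moved along with them: the summed CPM of 8 markers was 7467 and 8053 in pgWAT male 1 and 3, 3381 and 3218 in the libraries labelled female 2 and 3 and 2242 in that labelled female 1, against 754 to 1164 in the other 5, and their part in these differences was not tested.

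**Figure D3:**
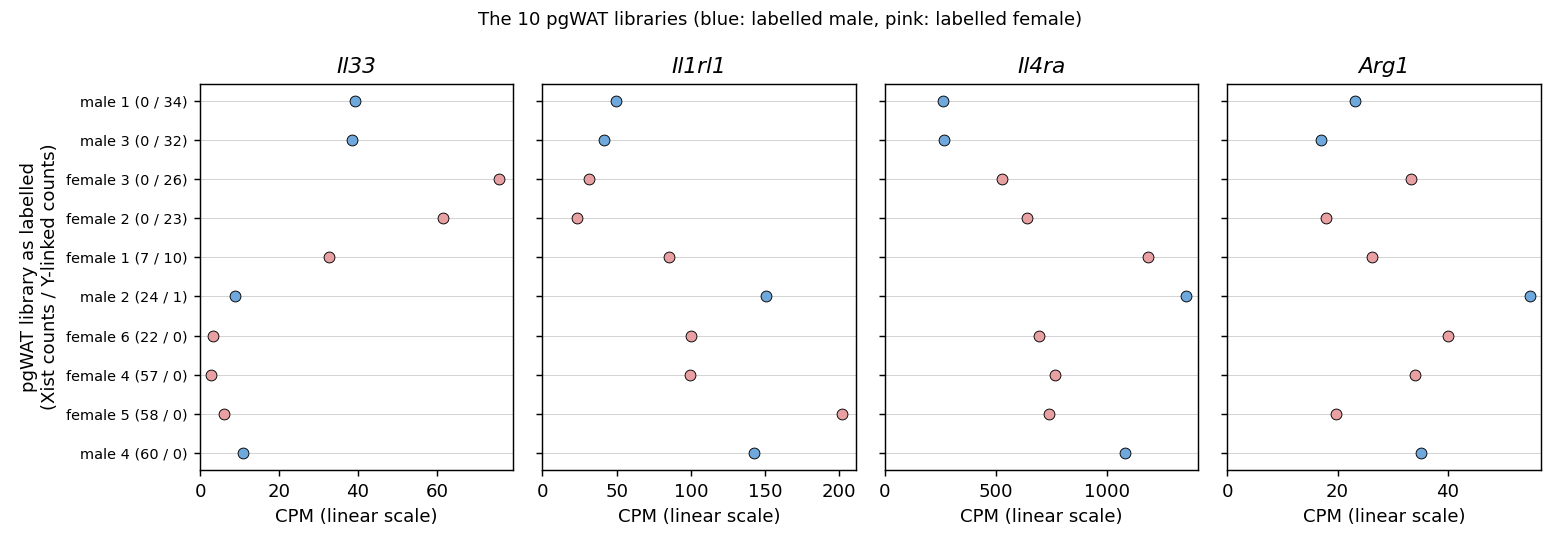
CPM (horizontal axes, linear) of Il33, Il1rl1, Il4ra and Arg1 in each of the 10 pgWAT libraries, listed from most to fewest Y-linked counts with the counts of Xist and of 4 Y-linked genes in parentheses; colour gives the label. The 5 libraries with 10 or more Y-linked counts have 32.8 to 75.6 CPM of Il33 and the other 5 have 2.83 to 11.0.

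Il4ra and Arg1 varied together across the libraries. Over all 29 libraries, which share the depot and sex differences above, Pearson's r of their log2 CPM was 0.84, and over the 19 iWAT libraries it was 0.81, where the 2 sexes form separate clusters. Il33 and Il1rl1, ligand and receptor, had an r of 0.43 over all libraries and -0.08 over the iWAT libraries. Stat6 had an r of -0.20 with Il4ra and -0.20 with Arg1. Groups, depth and wells are shared by these points, so the coefficients describe these libraries only.

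**Figure D4:**
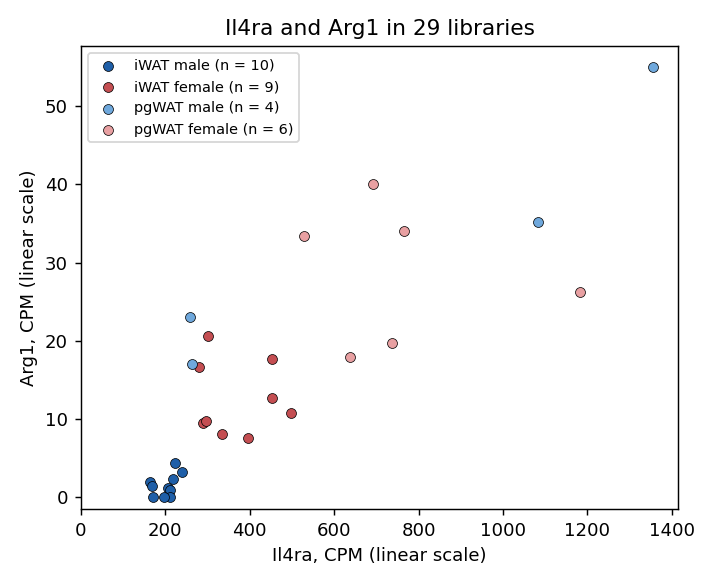
Arg1 (vertical axis, CPM) against Il4ra (horizontal axis, CPM) in the 29 libraries, coloured by group, both axes linear. The iWAT male libraries lie at the lower left, with Arg1 at 4.43 CPM or less and Il4ra at 239.7 CPM or less.

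The genes whose log2 CPM followed each of the 6 genes most closely over the 29 libraries were taken from the 8853 that passed the filter. For Il4ra they were Myl9 (r 0.93, 0.86 over the iWAT libraries), Lox (0.90 and 0.72) and Myo1d (0.89 and 0.69), and for Arg1 Tagln (0.89 and 0.79), Postn (0.87 and 0.80) and Myl9 (0.87 and 0.85). Myl9 and Tagln encode proteins of the contractile cytoskeleton, Lox crosslinks collagen and Postn is a matrix protein. For Il33 they were Smg6 (0.92 and 0.82), Loxl3 (0.85 and 0.54) and Ass1 (0.84 and 0.53). For Il1rl1 they were Dusp9 (0.93 and 0.36), Fez1 (0.92 and -0.48) and Tm4sf1 (0.92 and 0.70), where Fez1 took the opposite sign within iWAT. For Il13ra1 they were Lman2 (0.80 and 0.82), Kdelr1 (0.77 and 0.73) and Pros1 (0.77 and 0.79), and for Stat6 Msrb1 (0.73 and 0.70), Brk1 (0.69 and 0.71) and Rnasek (0.67 and 0.72).

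Transcripts of 6 listed ligand genes, among them Il4 and Il13, were nearly absent from the libraries, and cytokine protein was not measured. Of Il4, Il13, Il5, Il9, Il25 and Areg, none passed the filter. Il9 and Il25 had 0 counts in all 29 libraries, Il4 had 1 count over the 19 iWAT and 0 over the 10 pgWAT libraries, and Il13 had 0 and 1. Areg, the growth factor amphiregulin, had 2 and 0. The 6 together reached at most 3.33 CPM in a library. Markers of possible cellular sources were also low. The summed CPM of 5 T cell and ILC2 markers (Cd3e, Cd4, Il7r, Gata3 and Klrg1) was at most 15.2 in iWAT and 17.1 in pgWAT libraries, and that of 5 mast cell and basophil markers (Cpa3, Fcer1a, Kit, Hdc and Mcpt4) at most 20.2 and 43.5, with none of the 10 past the filter. Klrg1 and Fcer1a had 0 counts in all iWAT libraries and Cd3e had 0 in all pgWAT libraries.

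Downstream of the IL-4, IL-13 and TSLP receptors, 9 of 16 listed signalling genes passed the filter. 3 of the 9 were called higher in pgWAT and none was called lower, which is near the 38.1% of all genes called in either direction (20.1% higher and 17.9% lower) against which the lists below are also to be read. The median log2 fold change was 0.24 beside 0.01 over all genes, and none of the 9 was called between the sexes in iWAT, where 3.22% of all genes were. Socs3, a feedback inhibitor of cytokine signalling, rose by 1.59 (SE 0.228, edgeR FDR 1.04e-06) from 22.6 ± 13.8 to 68.5 ± 23.5 CPM. Stat3 rose by 0.73 (SE 0.110, FDR 2.53e-06) and the kinase gene Jak1 by 0.45 (SE 0.097, FDR 3.61e-04). Il2rg, the common gamma chain, had 11.5 ± 5.16 CPM in iWAT and 16.5 ± 10.7 in pgWAT and was not called (0.57, SE 0.282, FDR 0.109).

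Of 15 listed genes of the IL-1 receptor family and the MyD88 pathway, which carries signals of ST2, 10 passed the filter, 3 were higher in pgWAT and 2 lower, with a median of 0.28. Irak2, a kinase of the receptor complex, rose by 1.14 (SE 0.153, FDR 3.14e-07), Il1rap is given above, and Rela, a subunit of NF-kappaB, rose by 0.43 (SE 0.119, FDR 0.00408). Il1r1, the receptor for IL-1, was lower in pgWAT (-0.80, SE 0.147, FDR 4.37e-05), as was the IL-36 receptor gene Il1rl2 (-0.36, SE 0.132, FDR 0.03). Between the sexes in iWAT, Irak2 was lower in male (-0.75, SE 0.196, FDR 0.0251) and Il1rl2 higher (0.52, SE 0.147, FDR 0.0443).

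Among 15 other known targets of IL-4 and IL-13, 6 passed the filter, 3 were higher in pgWAT and 2 lower, with a median of 0.74. The macrophage targets Retnla, Chil3, Clec10a and Mgl2 did not pass it. The called genes were ones that fibroblasts also express. Tnc, an extracellular matrix glycoprotein, was lower in pgWAT (-3.09, SE 0.201, FDR 2.72e-14), at 115 ± 52.4 against 1023 ± 497 CPM, and so was the eosinophil chemokine gene Ccl11 (-1.92, SE 0.232, FDR 4.28e-08), at 174 ± 76.2 against 656 ± 298 CPM. Postn rose by 1.79 (SE 0.196, FDR 5.76e-09) and Timp1 by 0.92 (SE 0.137, FDR 1.76e-06). The Postn difference was 3.04 (SE 0.289, FDR 1.37e-09) within labelled males and 0.54 (SE 0.262, FDR 0.127) within labelled females, where it was not called. The difference between these was called in the interaction test (2.49, SE 0.402, FDR 0.00417). In iWAT, with a list median of -0.41, Postn (-2.10, SE 0.251, FDR 1.21e-06) and Tnc (-1.20, SE 0.191, FDR 1.82e-04) were called lower in male, beside 2.13% of all genes. Arg1 had the same direction there. Mrc1 (1.29, SE 0.462, FDR 0.128) and Vcam1 (0.60, SE 0.179, FDR 0.0562) had the opposite direction and were not called. Ccl11 (-0.73, SE 0.237, FDR 0.0838) and Timp1 (-0.09, SE 0.163, FDR 0.847) were not called either.

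Of 11 other listed genes of arginine and polyamine metabolism, 8 passed the filter, 1 was higher in pgWAT and 3 lower, with a median of 0.03, and none was called between the sexes in iWAT. Ass1, which makes argininosuccinate, was lower in pgWAT (-1.14, SE 0.174, FDR 2.57e-06), and Asl, which splits it to arginine, was higher (0.49, SE 0.127, FDR 0.00250). The polyamine synthase genes Sms (-1.24, SE 0.428, FDR 0.0208) and Srm (-0.58, SE 0.211, FDR 0.0285) were lower. Arg2, the mitochondrial arginase, and Nos2 did not pass the filter.

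Markers of other cell types moved with the same groups, and their part in the differences above was not tested. Of 8 macrophage markers, 6 passed the filter. 4 were higher in pgWAT, led by Itgam (1.55, SE 0.282, FDR 4.12e-05), and 2 were higher in iWAT male than in iWAT female, Lyz2 (1.24, SE 0.316, FDR 0.0206) and Csf1r (0.95, SE 0.221, FDR 0.0107). The summed CPM of the 8 ranged from 1465 to 2505 in iWAT male, where Arg1 was lowest, from 639 to 1144 in iWAT female, from 1108 to 8053 in pgWAT male and from 754 to 3381 in pgWAT female. Epithelial keratins were the reverse in iWAT: Krt8 (-8.49, SE 0.957, FDR 5.10e-07) and Krt18 (-6.00, SE 0.779, FDR 4.68e-06) were lower in male, and the summed CPM of 4 epithelial markers ranged from 0 to 8.50 in iWAT male, 32.4 to 1438 in iWAT female, 10.7 to 54.0 in pgWAT male and 59.98 to 169 in pgWAT female. Of 5 mesothelial markers, 3 passed the filter, and Upk3b (7.22, SE 0.356, FDR 2.18e-14) and Wt1 (4.88, SE 0.354, FDR 3.88e-13) were higher in pgWAT and Krt19 lower (-1.43, SE 0.424, FDR 0.00787). Of 5 endothelial markers, 3 passed, and Kdr was higher in pgWAT (1.16, SE 0.293, FDR 0.00204). Of the 6 fibroblast markers, 5 were called higher in pgWAT and none was called lower, led by Col1a1 (1.22, SE 0.182, FDR 2.05e-06), and Col1a1 (-1.23, SE 0.221, FDR 0.00114) and Lum (-1.38, SE 0.264, FDR 0.00196) were lower in iWAT male.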

How the data were processed

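The authors deposited expected counts per gene, which they estimated with Salmon 1.9.0 on GRCm39 and summed from transcripts to genes, with UMI and other reads together and no normalization. Per the submitters' processing notes STAR 2.7.10a was also used. Of the values 96.5% were exactly whole, counting zeros as whole (85.1% when zeros are left out), and all were rounded. Of 56953 features 91.4% were matched to a symbol by Ensembl ID, and the unmatched held 0.439% of counts. Transcript lengths came from a GRCm38 annotation (Gencode vM21), and no coordinates of these builds were combined. The two-sided quasi-likelihood F test of edgeR 4.0.16 (R 4.3.3) was used after TMM scaling and filterByExpr, in 1 model with a term for each of the 4 groups over 29 libraries. The filter kept 8853 genes, and calls were made below a Benjamini-Hochberg FDR of 0.05 over all of them. SEs were derived from the F statistic. Alternatives used DESeq2 1.42.0, limma-voom (limma 3.58.1), other scaling, no filter, well column and fewer libraries. The fit was tested on simulated data. No 2 libraries of a group agreed within counting noise.

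The 8 genes and all lists were chosen with earlier results of these data known. Besides the 8 genes, up to 4 called genes of each list with the largest change in the depot and in the iWAT sex contrast were named, and for likeness the 3 genes with the highest r of log2 CPM (prior count 2). Il2rg, Nab2 and listed genes that did not pass the filter were named after their values were seen.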

Additional observations from a re-analysis of the deposited data

Results flagged for a closer look

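The depot difference of Arg1 differed between the labelled sexes, by the interaction test of edgeR (3.16 on the log2 scale, SE 0.539, FDR 0.00589), and pgWAT was 4.32 above iWAT in labelled males and 1.16 above it in labelled females. All 4 pgWAT male libraries lay above all 10 iWAT male libraries, and 4 of the 6 pgWAT female libraries lay above all 9 iWAT female libraries. The value was between 2.35 and 3.42 in the alternatives run. Its FDR was 0.0417 without the 5 pgWAT libraries whose sex-linked counts did not match and 0.0728 with limma-voom, which lost the call. The iWAT male level rests on 8 counts in 10 libraries. This interaction is built from depot differences that were known when the genes were chosen, so its FDR is no independent support. By a gap ratio for 1 extreme value, no library stood out from its group in 32 comparisons of a gene in a group, over the 8 genes. This rule cannot flag a group that splits into pairs. The pgWAT male libraries did so for Il4ra, with 259.6 and 264 CPM in libraries 1 and 3 against 1355 and 1082 in libraries 2 and 4.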

How the results depend on the processing

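Over all alternatives run, Arg1, Il1rl1, Il33 and Il4ra kept direction and call between depots (36 of 36 alternatives each). For genes chosen with these differences known, this describes the same libraries and is no support for a difference. Between the sexes in iWAT, Arg1 (37 of 37) and Il4ra (38 of 38) kept direction and call. Arg1 did not pass the filter with the iWAT groups fitted alone and was not tested there. Of the alternatives, 29 left out 1 library, among them pgWAT libraries outside this contrast, and all reused the same wells. These counts are no independent support either. Group means of CPM on library totals alone moved by less than 1 SD for all 8 genes, and other scaling moved the median of all genes by less than 0.1. The Il13ra1 calls are the least stable, as given above. No paired analysis was possible because the labels carry no replicate numbers that tie wells of different groups. Well column 8 alone in pgWAT was chosen after seeing the data and leaves 1 male library, assumed to vary like the others.

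Leaving out 1 library at a time, the genes called ranged from 1184 (without pgWAT male 4) to 1905 within labelled males, from 0 to 9 between labelled sexes in pgWAT and from 3 (without pgWAT male 2 or 4) to 31 (without pgWAT male 1) in the interaction, against 1801, 1 and 16, and the pathway genes called in the iWAT sex contrast from 2 to 5 against 4. Differences near 0 changed sign without 1 library or another: Stat6 between depots (-0.024 to 0.089) and within males (-0.21 to 0.015), Il13ra1 within females (-0.13 to 0.084) and, between labelled sexes in pgWAT, Stat6 (-0.18 to 0.041), Arg1 (-0.16 to 0.40), Il33 (-0.61 to 0.33), Il1rl1 (-0.23 to 0.51) and Il4ra (-0.49 to 0.25).

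Without the 5 pgWAT libraries that did not match, 872 genes were called within males (Stat6 0.17), 556 between the sexes in iWAT (8 pathway genes), 536 between them in pgWAT (3 of the 6 genes) and 244 in the interaction (2 of the 6). In pgWAT, Il33 turned to 3.11, Il1rl1 to -1.61, Arg1 to -0.63 and Stat6 to 0.29, in the interaction Il1rl1 turned to -1.35, Il4ra to -0.64 and Stat6 to 0.11, and within females Il13ra1 to -0.27. Well column 8 alone gave 570 genes in pgWAT with 3 of the 6 (Il33 3.16, Il1rl1 -1.46, Arg1 -0.37, Stat6 0.29), and 1348 genes with Il13ra1 at -0.58 within females. Well column as a factor gave 496 genes in the iWAT sex contrast, 58 in pgWAT (Il33 0.86, Arg1 -0.56, Il1rl1 -0.29, Stat6 0.11) and Il13ra1 at -0.31 within females. No filter gave 509, 59 and 73 genes in the iWAT sex, pgWAT sex and interaction contrasts, Il13ra1 at -0.036 within females and Il4ra at 0.0029 in pgWAT, and library totals alone gave Il13ra1 at -0.043 within females. DESeq2 called 17 genes in pgWAT and 37 in the interaction, and limma-voom 6 (Il33 0.61) and 2 (0 of the 6 genes). Of the pathway genes in the iWAT sex contrast, 2 were called in well column 7 alone and 7 with the iWAT groups alone. The cause of these shifts was not tested.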
